A study of Mus musculus with 56 samples.

Results

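The genes described here are the macrophage receptor Csf1r, its ligands Csf1 and Il34, and 6 genes of macrophages and related myeloid cells, Lyz2, Tyrobp, Fcer1g, Laptm5, Cd68 and Mrc1. They were taken by symbol, 9 of the 24062 genes of the expression table, and all 9 passed the filter on low values. RNA had been sequenced from 7 populations of mouse dorsal skin, sorted by flow cytometry at postnatal day 22. The animals, whose genotype field reads CD1, carried the reporters K14-H2BGFP, Crabp1-GFP and Lef1-RFP, and no other treatment than sorting is given. Dermal papilla cells (DP) and dermal fibroblasts (DF) are the mesenchymal populations. Bulge stem cells (BuSC), hair germ stem cells (HGSC), upper hair follicle cells (Foll) and epidermis (Epi) are the epithelial ones. Neg is the fraction negative for the labels, a mixture of the cells that the Krt14, Crabp1 and Lef1 promoters do not mark. Each population came from 4 skin sections (zones 1 to 4) in 2 biological replicates, 8 libraries per population and 56 in all. The positions of the zones are not given, and the labels enter the zone as the batch, and the pair cannot be told apart.

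Csf1r is a receptor tyrosine kinase on which most tissue macrophages depend for survival. It has a pair of ligands with little sequence in common. Csf1 is made by many stromal cells, whereas Il34 is made in skin mainly by keratinocytes and maintains the Langerhans cells of the epidermis. Tyrobp (DAP12) and Fcer1g (the common Fc receptor gamma chain) are adapters that carry activating signals from myeloid receptors through ITAM motifs. Laptm5 is a lysosomal membrane protein of blood-derived cells and Cd68 a lysosomal glycoprotein of macrophages. Lyz2 is the lysozyme of myeloid cells, and Mrc1 is the mannose receptor of resident dermal macrophages. PU.1 (Spi1) is the transcription factor that drives Csf1r and many other myeloid genes.

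By the GENCODE M21 annotation of GRCm38, Csf1 lies at chr3:107741048-107760469 and Il34 at chr8:110741829-110805924, both on the minus strand. Reads of Il34 cannot be separated from those of Gm15894 and Gm15895, antisense transcripts that overlap it, since the strand of the libraries is not given. Tyrobp lies at chr7:30413760-30417585 and Laptm5 at chr4:130913125-130936141 on the plus strand, and Fcer1g at chr1:171229572-171234365 on the minus strand.

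Upstream windows of 3 members are shown to set the most and the least Neg-restricted markers side by side. Neg stood above the next population by 4.42 on the log2 scale for Lyz2 and by 3.34 for Mrc1, both without overlap. It stood above by 1.18 for Cd68, the smallest such margin of the 6 marker genes. Fcer1g had a margin of 3.57 but overlapped with Foll, and its window is not shown. The windows are from RefSeq (GRCm38.p6) and end at the base before the annotated first exon or at the end of the 250 bases taken. Mrc1 is at chr2:14229164-14229391 on the plus strand, Lyz2 at chr10:117282322-117282522 and Cd68 at chr11:69666171-69666420, both on the minus strand. They read 5′ to 3′ on the gene's strand, with GAGGAA, a core sequence bound by PU.1, or its reverse complement TTCCTC in capitals.
Mrc1: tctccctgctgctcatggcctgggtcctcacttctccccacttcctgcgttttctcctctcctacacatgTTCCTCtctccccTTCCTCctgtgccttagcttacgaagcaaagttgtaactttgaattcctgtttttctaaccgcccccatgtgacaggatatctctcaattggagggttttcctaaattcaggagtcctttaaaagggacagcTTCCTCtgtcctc
Lyz2: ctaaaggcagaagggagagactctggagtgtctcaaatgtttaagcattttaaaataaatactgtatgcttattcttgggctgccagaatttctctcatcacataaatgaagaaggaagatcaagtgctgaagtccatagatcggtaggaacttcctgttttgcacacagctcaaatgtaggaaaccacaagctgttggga
Cd68: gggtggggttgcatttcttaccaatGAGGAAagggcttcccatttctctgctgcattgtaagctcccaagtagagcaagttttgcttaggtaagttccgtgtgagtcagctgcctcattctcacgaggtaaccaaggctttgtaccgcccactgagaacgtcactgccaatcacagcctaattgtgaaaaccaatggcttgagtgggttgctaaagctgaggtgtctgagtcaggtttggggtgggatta
The Mrc1 window held 3 matches, the Cd68 window 1 and the Lyz2 window 0. Of 32851 promoters cut to the same length, 21.2% held at least 1 match and 0.323% held at least 3 for the Mrc1 length. The share with a match was 18.8% for the Lyz2 length and 23.3% for the Cd68 length. Promoter windows were found for 6 of the 9 members (Csf1, Lyz2, Fcer1g, Laptm5, Cd68 and Mrc1), and 3 of these held a match (Laptm5, Cd68 and Mrc1). This count used all 250 bases of each window, of which 191 lay in exons for Laptm5. Fcer1g held 0 matches. A match is a description of the letters and not a binding site.

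Levels are given as RPKM, reads scaled to gene length and to the depth of the library, with the mean ± SD over the 8 libraries of a population. Depth ran from 3.24 to 87.8 M reads (median 14.7 M). The DP and DF labels were checked by marker sums: papilla markers summed to 3213 to 4140 RPKM in DP and at most 296 elsewhere. Fibroblast markers summed to 40070 to 52750 in DF and 7497 to 15050 in Neg. In BuSC they summed to 1097 to 8523, which overlapped with Neg, against 33.9 to 243 in HGSC. Keratinocyte lists separated Epi from Foll little. Of upper epidermis markers 0 of 5, and of basal keratinocyte markers 1 of 6, were called higher in Epi, by the rule given below. Of the 56 libraries, 52 were most similar to another of their own population. The exceptions were Foll zone 1 replicate 2, Foll zone 3 replicate 2, Foll zone 4 replicate 2 and Epi zone 3 replicate 2. Values without them stand beside some of the results on Foll and Epi. Without them, Foll zones 1, 3 and 4 and Epi zone 3 rest on 1 library each, and differences without them lean on those libraries.

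All 6 marker genes and Csf1r were highest in the Neg fraction. Lyz2 was the most abundant of the 9 members there, at 273, 376 and 514 RPKM (lowest, median and highest library), with a mean of 380 ± 83.0. Tyrobp followed at 65.6, 79.1 and 96.4 RPKM. Laptm5 ran at 41.4, 56.55 and 70.8 RPKM. The lowest Neg library stood above the highest library of every other population for these 3 genes.

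Fcer1g in Neg ran at 33.5, 59.3 and 81.3 RPKM, and a Foll library reached 42.6, so the groups overlapped. Mrc1 ran at 20.7, 36.4 and 55.1 RPKM, against at most 3.85 in DF, the next population, with no overlap. Cd68 ran at 9.48, 26.4 and 40.4 RPKM and overlapped with Foll, where it reached 70.3, and with Epi, where it reached 36.4. Cd68 is thus the marker whose level separated Neg least from the rest. In bulk RNA, fewer cells of a type and less RNA per cell cannot be told apart.

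**Figure D1:**
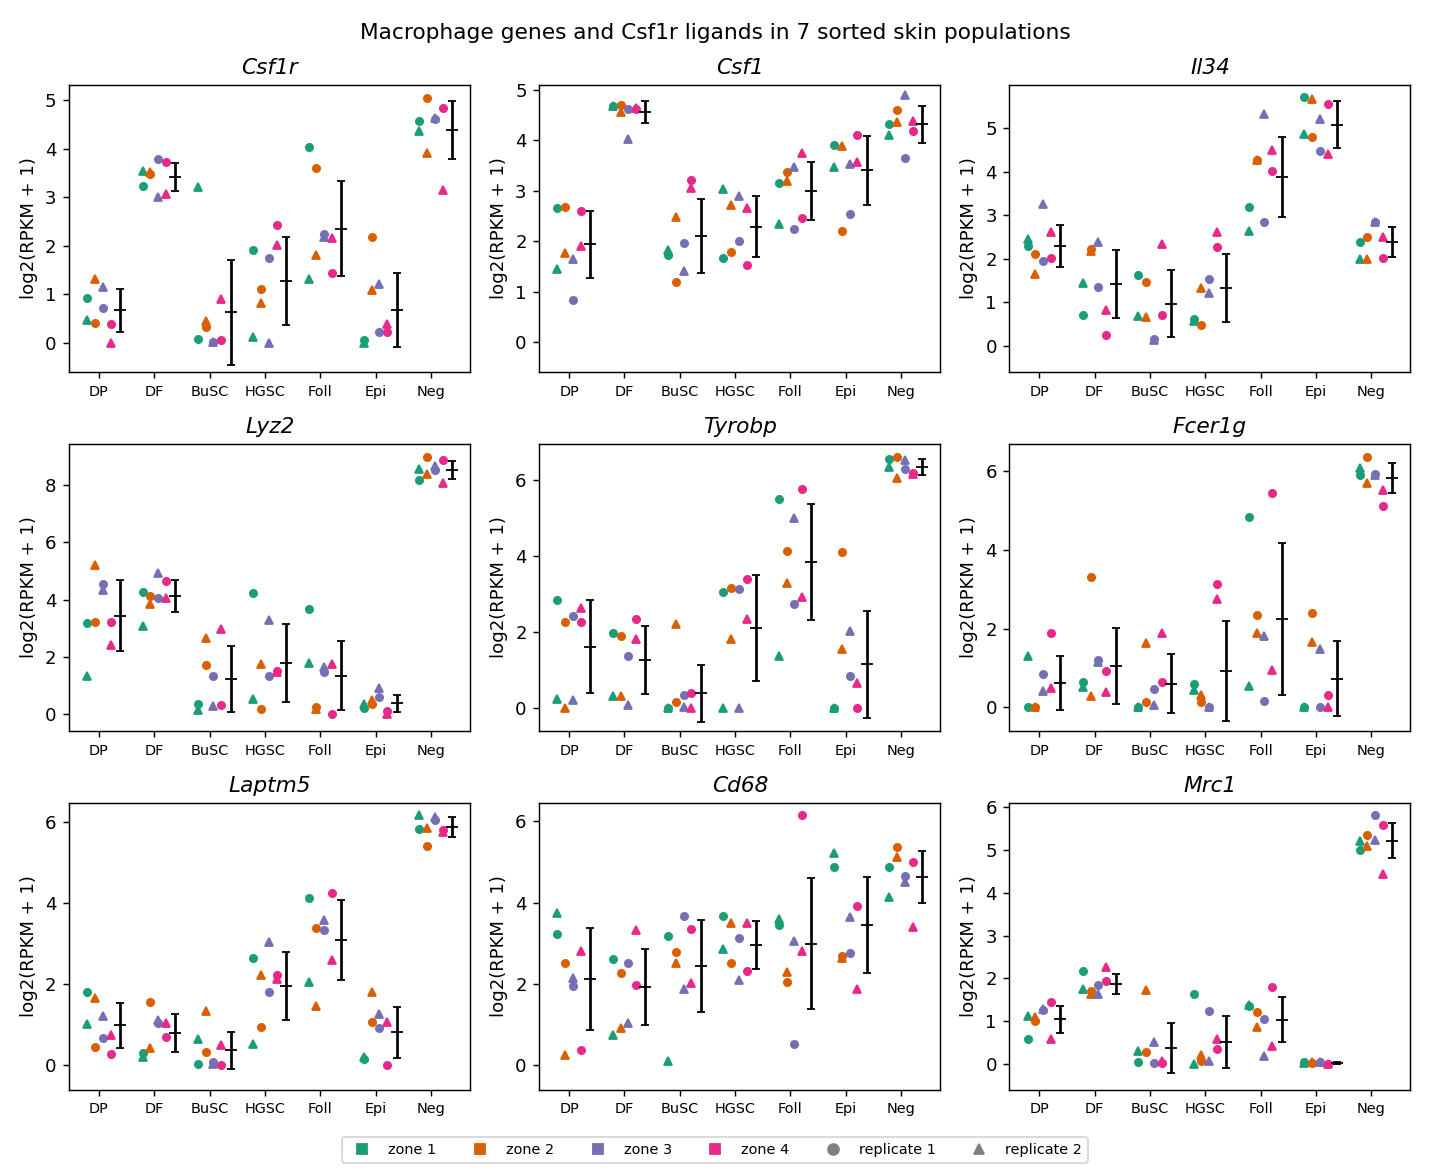
Level of each of the 9 genes, as log2(RPKM + 1), in the 8 libraries of each population. Colours mark the zone, circles and triangles replicate 1 and 2, and bars the mean ± SD on the log2 scale (n = 8); the 6 marker genes and Csf1r are highest in Neg, Il34 in Epi, and Csf1 in DF and Neg.

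Against the mean of the other 6 populations, 8 of the 9 members were higher in Neg, with a background of 12.9% of all genes tested (limma on log2(RPKM + 1)). A call needed an adjusted p (Benjamini-Hochberg) below 0.05 and a log2 difference of at least 1. The difference was 6.50 ± 0.33 (SE) for Lyz2 (adjusted p = 9.34e-18), 4.79 ± 0.38 for Fcer1g (8e-13) and 4.61 ± 0.45 for Tyrobp (1.34e-10). Laptm5 and Mrc1 differed by 4.54 ± 0.26 and 4.40 ± 0.19. The receptor Csf1r differed by 2.88 ± 0.30 (adjusted p = 5.97e-10), Cd68 by 1.99 ± 0.38 (7.08e-05) and Csf1 by 1.43 ± 0.23 (2.81e-06). Il34 was the member not called, with a difference of -0.11 ± 0.23 (adjusted p = 0.757).

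Markers of other leukocytes were high in the Neg fraction too. Of 25 macrophage and monocyte markers, 22 were higher there and 0 lower, with a median log2 difference of 2.60 against 0.02 over all genes. For this list and the lists below, the share of all genes tested that were higher in Neg was 12.9%. Ctss (cathepsin S), Lyve1, the chemokine receptor Ccr2 and the complement gene C1qc differed most, by 4.45 ± 0.34, 4.44 ± 0.24, 4.24 ± 0.16 and 4.16 ± 0.31. The Langerhans and dendritic cell list had 15 of 16 genes higher, led by the class II antigen presentation genes Cd74 (4.76 ± 0.31) and H2-Aa (4.74 ± 0.32). T and NK cell markers had 11 of 12 higher and mast cell markers 7 of 7 tested. Endothelial (8 of 8), Schwann cell (6 of 6), melanocyte (5 of 5) and fibroblast markers (7 of 7) were higher in Neg too. A gene could pass the filter on low values through its Neg libraries alone, so these counts of tested genes favour genes high in Neg. Tyrobp, Fcer1g and Laptm5 are also made by NK cells, mast cells or dendritic cells, and which Neg cells carried them was not tested.

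Many tested partners of the adapters and of the receptor were higher in Neg as well, where 12.9% of all genes were. The list for ITAM partners and signalling held 17 genes, of which 10 passed the filter on low values. Of these 10, 8 were higher. A gene could pass the filter through its Neg libraries alone, so such a count favours genes high in Neg. Of 15 genes of the Csf1r pathway, 8 were higher and 1 lower, with Spi1 at 3.03 ± 0.21 and the lipid phosphatase Inpp5d, a brake on receptor signalling, at 2.76 ± 0.21. Of 12 lysosome genes tested, 5 were higher, the smallest share of these 4 lists. Other receptors for myeloid growth factors had 8 of 12 higher, led by Kit, the stem cell factor receptor of mast cells and melanocytes, at 4.25 ± 0.25.

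Csf1r outside Neg did not follow the other macrophage genes. In DF it was at 7.01, 10.3 and 12.9 RPKM, in Neg at 7.91, 23.1 and 31.9. It was detected in every DF library, with 422 to 1576 reads behind each value. All DF libraries lay within or just below the Neg range, and 7 of the 8 Neg libraries were above every DF library. The DF mean of 9.91 ± 2.14 RPKM was 46.4% of the Neg mean of 21.35 ± 7.51.

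The other macrophage genes in DF stood between 1.42% and 13.8% of their Neg means, Cd68 being the highest. Lyz2 in DF was at 17.5 ± 6.61 RPKM, Mrc1 at 2.71 ± 0.656, and Tyrobp at 1.81, Fcer1g at 1.73 and Laptm5 at 0.830. The leukocyte gene Ptprc (CD45) was at 0.277 RPKM in DF against 26.0 in Neg, Adgre1 (F4/80) at 0.407 against 8.47, and Spi1 at 0.594 against 10.3. The complement genes C1qa (0.767 against 4.30) and C1qc (4.89 against 30.2) and the receptor gene Cd14 (0.814 against 5.06) stood at 17.8%, 16.2% and 16.1% of Neg in DF. The 25 macrophage markers summed to 64.3 to 96.9 RPKM in DF and to 247 to 431 in Neg. The same sum was 54.1 to 98.2 in DP, 45.3 to 73.3 in BuSC and 26.65 to 100.7 in Epi. In BuSC only 2 and in Epi only 3 of the 25 genes had a mean of at least 1 RPKM. A few genes thus set the sum there. The DF sum includes Fcgr3 and F13a1, described below, whose means were higher in DF than in Neg. The sum is therefore not a measure of macrophage content in BuSC, Epi or DF. The part of macrophages in the DF level of Csf1r was not tested.

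**Figure D2:**
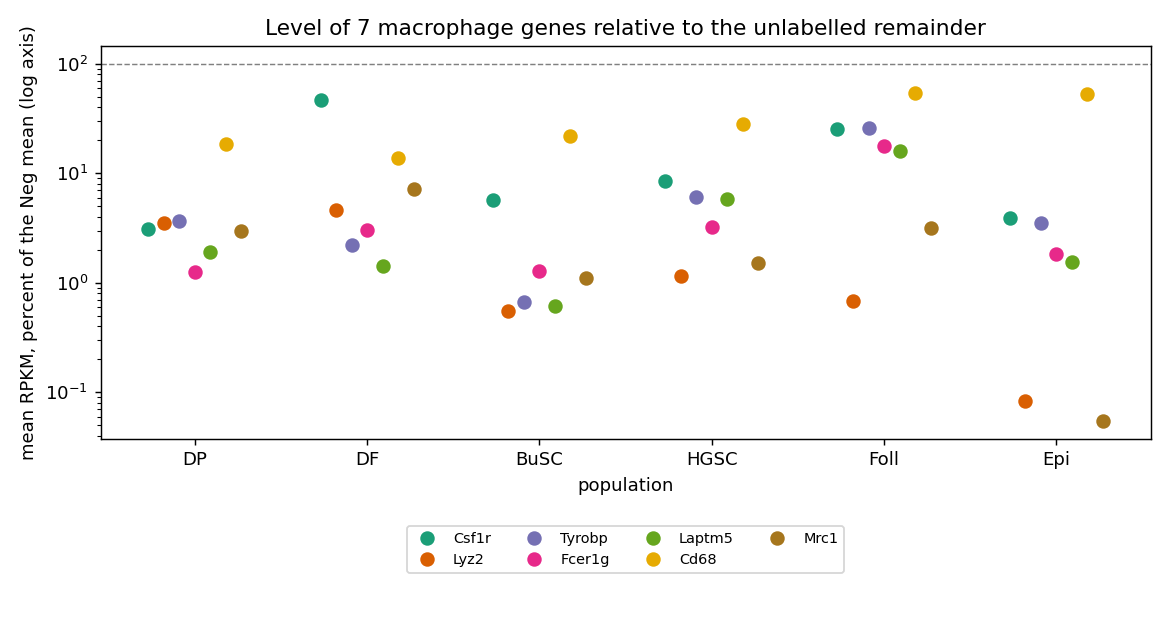
Mean RPKM of Csf1r and the 6 marker genes in each of 6 populations, as a percent of the Neg mean (log axis, dashed line at 100%). In DF, Csf1r stands at 46.4% while the 6 marker genes stand between 1.42% and 13.8%; in Foll the genes spread from 0.683% to 54.5%.

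A pair of genes on the macrophage list was, like Csf1r, higher in DF than in DP. Unlike Csf1r, both had higher means in DF than in Neg. Fcgr3, an Fc receptor for IgG, was at 12.6 ± 4.21 RPKM in DF, 7.00 ± 3.35 in Neg and at most 0.245 in the other populations. F13a1, a transglutaminase subunit of resident macrophages, was at 18.1 ± 2.96 in DF, 12.5 ± 4.91 in Neg and at most 1.31 elsewhere. Both were lower in DP than in DF, by 3.45 ± 0.25 and 3.12 ± 0.31 on the log2 scale. Of the 25 genes on the list, these 2 were called lower in DP and 1 higher, where 6.13% and 24.2% of all genes were. Csf1r lies next to Pdgfrb, a receptor of mesenchymal cells, with 15536 bases between them and no overlap, and Pdgfrb was at 24.95 ± 7.05 RPKM in DF and 30.9 ± 5.92 in Neg. Hmgxb3 overlaps Csf1r exons on the opposite strand and, since strand is not given, their reads cannot be separated. Hmgxb3 was at 3.18 RPKM in DF, 6.15 in Neg and 7.75 in DP on deposited values, and its part in the Csf1r levels was not tested.

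Between the mesenchymal populations, the receptor and the ligand Csf1 were both low in the papilla. Csf1r was at 0, 0.522 and 1.503 RPKM in DP, below every DF library. The difference DP minus DF was -2.75 ± 0.39 (limma, adjusted p = 4.22e-07). Csf1 was at 0.781, 2.57 and 5.35 RPKM in DP and 15.4, 23.8 and 25.1 in DF, again without overlap. The difference was -2.63 ± 0.30 (adjusted p = 3.38e-09). These 2 members were called lower, with a background of 6.13% of genes lower, and 0 were called higher, with a background of 24.2%.

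Il34 and Mrc1 passed the adjusted p between DP and DF but not the minimum difference, with 0.87 (adjusted p = 0.0152) and -0.82 (0.00717). The Il34 difference did not pass with quantile scaling (0.44, adjusted p = 0.265), median-of-ratios scaling (0.29, 0.525) or voom (0.62, 0.495), and was a full call with a pseudocount of 0.1 (1.35, 0.00537). The Mrc1 difference was a full call with quantile scaling (-1.40), median-of-ratios scaling (-1.49) and voom (-2.23), and missed with a pseudocount of 0.1 (adjusted p = 0.0573). Of the 15 genes of the Csf1r pathway list, 7 were higher in DP and 0 lower, where 24.2% of all genes were higher. The largest differences were those of the transcription factors Cebpa (4.04), Runx1 (3.51) and Irf8 (3.28) and of the syndecan gene Sdc1 (3.09). Spi1 was near 0 in both, at 0.269 RPKM in DP and 0.594 in DF. The DF libraries carry a scaling limit that touches these values. The median of all genes was 0.47 higher in DP than in DF on the log2 scale, and a median-of-ratios scaling used factors of 0.545 to 0.612 for DF. Under that scaling Csf1r in DF was 17.3 ± 4.10, 83.8% of Neg, and the other macrophage genes were 2.57% to 24.6%.

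Csf1r had a lower mean in DF than in Neg under every setting tried, but the call depended on the setting. On deposited values Neg was higher by 0.97 on the log2 scale (adjusted p = 0.0401, with a background of 50.6% of genes differing between this pair). With median-of-ratios scaling the difference DF minus Neg was -0.18 (adjusted p = 0.786), with quantile scaling -0.27 (0.681) and on recovered reads with voom -0.28 (0.505). It was also not called with a pseudocount of 0.1 (adjusted p = 0.230) or with no filter on low values (0.0585). Leaving out 1 library in turn lost the call in 12 of the 56 fits, with adjusted p from 0.0185 to 0.128. Csf1r in DF over DP, BuSC, HGSC and Epi was called in every setting tried, by 2.15 (HGSC, adjusted p = 1.47e-05) to 2.79 (BuSC, 2.2e-07) on deposited values. The background between DF and these 4 populations was 49.9% (DP), 56.4% (BuSC), 60.8% (HGSC) and 57.1% (Epi) of genes.

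The ligands were highest in different populations. Il34 was highest in the epidermis, at 20.1, 32.0 and 51.5 RPKM, with the upper follicle next at 5.20, 16.8 and 39.1. No Epi or Foll library was below 5.20, whereas DF reached 4.27 at most, HGSC 5.16 and BuSC 4.03. The groups Epi and Foll overlapped, and Foll overlapped with Neg (3 to 6.2) and DP (2.17 to 8.52). Il34 in Epi was above each of the other 6 populations in the pairwise tests, by 2.70 over Neg and 4.11 over BuSC on the log2 scale. The difference over Foll, 1.20, was not called when Epi and Foll were fitted alone (limma, adjusted p = 0.106). The background of these tests was 43.6% of genes for DP, 57.1% for DF, 34.3% for BuSC, 35.6% for HGSC, 16.2% for Foll and 44.2% for Neg.

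Csf1 was highest in DF, at 22.9 ± 3.15 RPKM, and in Neg, at 19.45 ± 5.04, with 11.6, 19.3 and 28.75 RPKM as lowest, median and highest Neg library. DF and Neg overlapped and were not distinguished (adjusted p = 0.504). Under median-of-ratios scaling DF was at 39.8, 211% of Neg, and the difference DF minus Neg of 1.07 passed (adjusted p = 0.00296), as it did with quantile scaling (0.89, 0.0121). Epi followed at 10.5 ± 4.43, Foll at 7.52 ± 3.17, HGSC at 4.25 ± 2.11, BuSC at 3.85 ± 2.63 and DP at 3.18 ± 1.79. DF was above Epi by 1.17 on the log2 scale (limma, adjusted p = 0.001) and above Foll by 1.57 (2.39e-05; background 58.6%). The differences were 1.29 and 1.78 without the 4 libraries that stood apart.

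**Figure D3:**
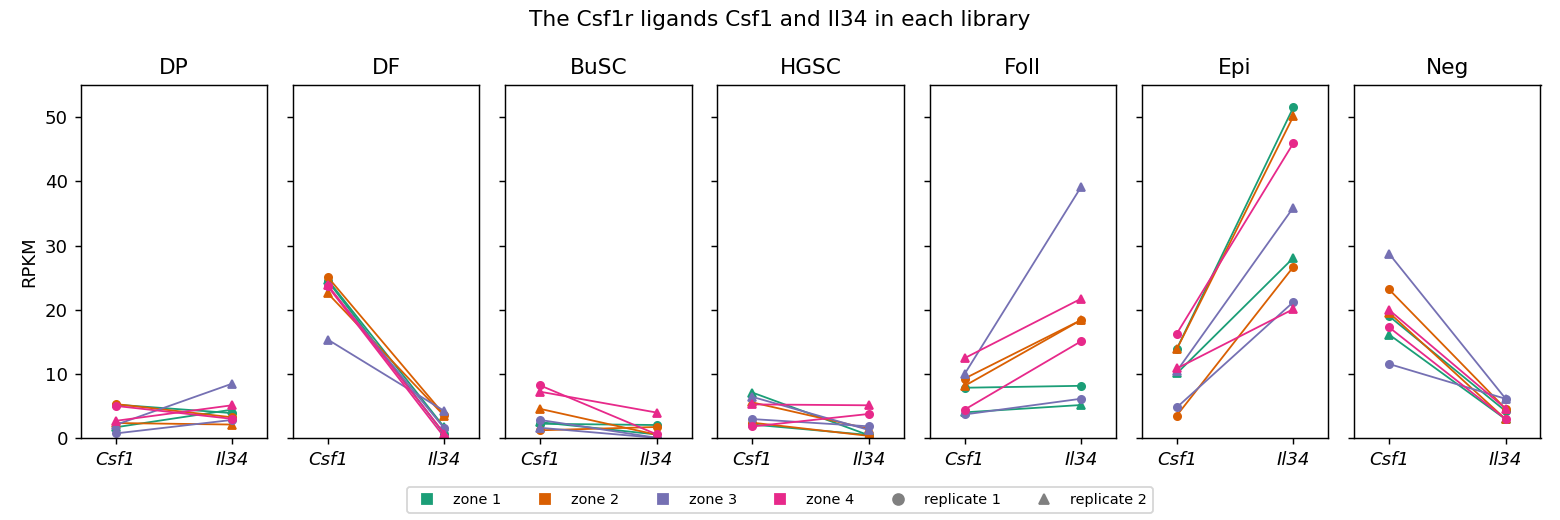
RPKM of Csf1 and Il34 in each library, joined by a line, in 7 panels for the populations. Il34 is the higher of the pair in 8 of 8 libraries of Epi and of Foll and in 0 of 8 of DF and of Neg.

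The balance of the ligands within a library does not depend on library scaling. Il34 was above Csf1 in 8 of 8 Epi and 8 of 8 Foll libraries, in 4 of 8 DP libraries, in 1 of 8 of BuSC and of HGSC, and in 0 of 8 of DF and of Neg. Without the 4 libraries that stood apart it was above Csf1 in 7 of 7 Epi and 5 of 5 Foll libraries, with mean shares of 77.0% and 65.2%. As a share of the RPKM of both ligands, Il34 made up 77.0% in Epi (64.9% to 88.2%) and 65.7% in Foll (50.9% to 79.6%). It made up 18.8% in Neg (13.3% to 34.7%) and 8.39% in DF (0.789% to 21.7%). The DP share was intermediate, 57.8%, with libraries from 37.6% to 80.2%. The stem cell populations BuSC and HGSC stood at 23.6% and 29.2%, below the other keratinocyte populations.

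The summed level of the ligands was 45.5 ± 16.5 RPKM in Epi, 25.0 ± 2.61 in DF, 24.1 ± 13.4 in Foll and 23.8 ± 5.51 in Neg. With median-of-ratios scaling the DF sum was 43.4 ± 4.27, against 42.1 ± 16.6 in Epi, 20.2 ± 11.3 in Foll and 23.1 ± 5.71 in Neg, so the place of DF depends on the scaling. Without the 4 libraries that stood apart, the deposited sum was 45.3 ± 17.8 in Epi (n = 7) and 19.98 ± 7.43 in Foll (n = 5). It was 7.37 in DP, 6.14 in HGSC and 5.09 in BuSC. The papilla and the stem cell populations thus had the lowest sums. BuSC and HGSC were not distinguished for Csf1 or for Il34 (adjusted p = 0.562 for Il34).

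Other growth factors of myeloid cells had patterns of their own. Flt3l, the ligand of the dendritic cell receptor Flt3, was at 33.1 RPKM in DF, 27.1 in Neg and 0.768 in DP, lower in DP by 4.30 on the log2 scale (adjusted p = 4.68e-08). Kitl, which feeds mast cells and melanocytes through Kit, was highest in HGSC (45.4 RPKM) and BuSC (25.0). Ccl2, a monocyte attractant, was at 11.9 RPKM in Neg and 4.97 in DF, and Cxcl12, a stromal chemokine, at 43.6 in Neg. Csf2 and Csf3 stayed at or below 0.411 and 0.358 RPKM in every population mean, and Il3 was listed at 0 in all but Epi (0.0264). Of 9 such factors tested, 3 were lower in DP than in DF (Flt3l, Kitl and Ccl2), where 6.13% of all genes were lower, and 0 were higher, where 24.2% were. In Neg 5 of the 9 were higher than elsewhere, against 12.9% of all genes.

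Macrophage genes were uneven across the libraries of the upper follicle. Tyrobp in Foll was at 1.57, 12.7 and 53.4 RPKM, Laptm5 at 1.75, 9.30 and 18.2, and Csf1r at 1.503, 3.53 and 15.4. Foll was the second population for Tyrobp, Fcer1g and Laptm5, with means of 21.03 ± 19.6, 10.1 ± 16.0 and 9.26 ± 5.93 RPKM. The SDs were close to or above the means for Tyrobp and Fcer1g.

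The highest values came from a few Foll libraries. Zone 4 replicate 1 had the highest Tyrobp (53.4), Fcer1g (42.6), Laptm5 (18.2) and Cd68 (70.3), but its Csf1r was 1.73 RPKM and its Lyz2 0. Zone 1 replicate 1 had the highest Csf1r (15.4) and Lyz2 (11.8), with Tyrobp at 44.5, Fcer1g at 27.7 and Laptm5 at 16.5. Zone 2 replicate 1 had the next Csf1r level (11.2) with Tyrobp at 16.6. Thus high Tyrobp and Fcer1g occurred both with high and with low Csf1r.

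The Langerhans cell gene Cd207 (langerin) was at 14.8 RPKM in zone 2 replicate 1 and at 0.533 and 0.166 in zone 1 replicate 1 and zone 4 replicate 1. The summed Langerhans and dendritic cell list was 596 and 712 RPKM in zones 1 and 2 of replicate 1, and 214 to 364 in the other 6 Foll libraries. In Neg it was 1471 to 2319. Fibroblast markers also differed: they summed to 1518 RPKM in zone 1 replicate 1 and to 99.3 to 427 in the other Foll libraries. The part of these cell types in the Foll levels was not tested.

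**Figure D4:**
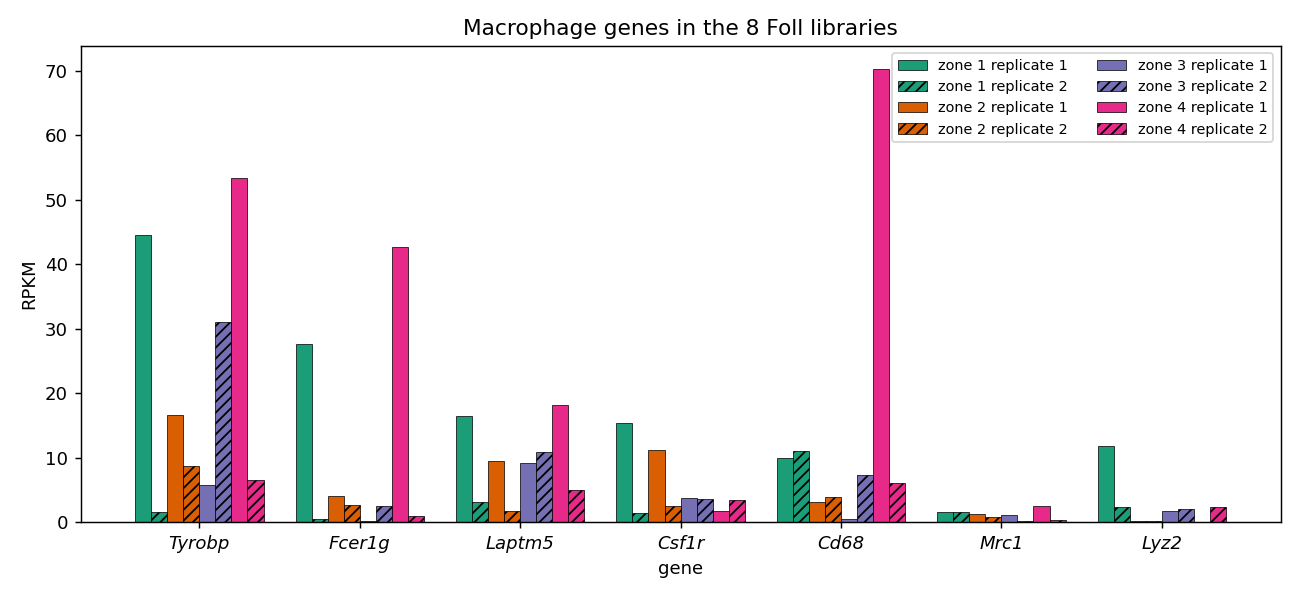
RPKM of Csf1r and the 6 marker genes in each of the 8 Foll libraries (hatched bars are replicate 2). Zone 4 replicate 1 has the highest Tyrobp, Fcer1g, Laptm5 and Cd68 with Lyz2 at 0, and zone 1 replicate 1 the highest Csf1r and Lyz2.

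Between epidermis and upper follicle, 6 of the 9 members differed, with a background of 7.79% of genes (5.86% lower in Epi, 1.92% higher). In Epi, Tyrobp was at 0, 0.694 and 16.3 RPKM, Csf1r at 0, 0.240 and 3.54, and Mrc1 at 0 to 0.0409. Tyrobp and Csf1r overlapped with their Foll ranges, and Mrc1 in Foll ran from 0.142 to 2.499 RPKM without overlap. The differences Epi minus Foll were -2.69 ± 0.59 for Tyrobp (limma, adjusted p = 0.00149), -2.28 ± 0.34 for Laptm5 (1.31e-05), -1.68 ± 0.39 for Csf1r (0.00278) and -1.01 ± 0.25 for Mrc1 (0.00511). Fcer1g differed by -1.52 ± 0.50 (0.0336). Mrc1 was under the minimum difference with quantile scaling (-0.82), median-of-ratios scaling (-0.89) and without Foll replicate 1 of zone 2, 3 or 4.

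Il34 went the other way, higher in Epi by 1.20 ± 0.30 (adjusted p = 0.00499), in 6 of 8 pairs of the same zone and replicate number. Csf1 (0.41, adjusted p = 0.397), Lyz2 (-0.97, 0.134) and Cd68 (0.46, 0.616) were not called. Without the 4 libraries that stood closest to another population, the differences were -3.43 for Tyrobp and -2.06 for Csf1r. The Foll libraries among them are all replicate 2, so Foll zones 1 and 4 then rest on replicate 1 alone. Those replicate 1 libraries had Tyrobp at 44.5 and 53.4 RPKM and Fcer1g at 27.7 and 42.6. The Foll libraries left out had Tyrobp at 1.57, 31.1 and 6.54 and Fcer1g at 0.450, 2.49 and 0.938. The Fcer1g call was lost in 8 of the 56 fits that left out 1 library. Among these, its adjusted p by limma was 0.158 without Foll zone 1 replicate 1 and 0.170 without Foll zone 4 replicate 1. The Fcer1g difference was -2.60 without the 4 libraries together. Il34 fell under the minimum difference without Foll zone 3 replicate 1 (0.89). Fitting Epi and Foll alone, without the spread of the other populations, left 2 of the 6 calls, Laptm5 and Mrc1. Csf1r (limma, adjusted p = 0.0668), Tyrobp (0.0747), Il34 (0.106) and Fcer1g (0.317) were not called in that fit.

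Of the Langerhans and dendritic cell list, 6 of 16 genes were lower in Epi than in Foll and 0 higher, with H2-Ab1 at -2.13, H2-Eb1 at -1.89, H2-Aa at -1.66 and Cd74 at -1.61. Of all genes 5.86% were lower. Of the macrophage list, 1 of 25 was lower, a share no larger than that background (Ctss, a protease gene, -2.26, adjusted p = 0.000448). Of the 7 fibroblast markers, 6 were lower in Epi as well, and of the 8 endothelial markers 4. Without the 4 libraries that stood apart, 5 of 16 Langerhans and dendritic cell genes, 3 of 25 macrophage, 6 of 7 fibroblast and 3 of 8 endothelial markers were lower, and 7.81% of all genes. Cd207 had a mean of 2.31 RPKM in Epi (median 1.59, highest library 10.2) and of 2.95 in Foll (median 0.82, highest library 14.8).

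Within the follicle stem cells, 1 member differed, with a background of 2.03% of genes lower in BuSC. Laptm5 was at 0, 0.159 and 1.55 RPKM in BuSC and at 0.436, 3.54 and 7.20 in HGSC, with overlap. It was lower in BuSC by 1.57 ± 0.34 on the log2 scale (limma, adjusted p = 0.00133). Tyrobp was at 0.543 RPKM in BuSC and 4.89 ± 3.77 in HGSC. The HGSC libraries split by replicate number, at 7.34 to 9.54 RPKM in replicate 1 and 0 to 4.04 in replicate 2. The difference BuSC minus HGSC of -1.72 ± 0.59 missed the threshold (limma, adjusted p = 0.0559). It was also -1.72 without the 4 libraries named above. Of 25 macrophage markers 0 were called by limma (2 at an unadjusted p under 0.05), whereas 4 of 16 Langerhans and dendritic cell markers were lower in BuSC, the class II genes H2-Ab1 (-3.94, adjusted p = 4.33e-09), Cd74 (-3.32), H2-Aa (-3.23) and H2-Eb1 (-2.14). Cd74 was at 66.2 RPKM in HGSC and 6.08 in BuSC, and the Langerhans gene Cd207 at 1.41 and 0.0018. Cd207 in HGSC was highest in zone 4, at 6.22 and 2.42 RPKM, and was 0 in 3 of the 8 libraries. The 7 fibroblast markers had a median log2 difference of 4.35 in BuSC over HGSC, against -0.04 over all genes. The part of fibroblasts in the BuSC levels was not tested.

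Lyz2 had the largest difference of the members between mesenchyme and keratinocytes. It was at 17.5 ± 6.61 RPKM in DF and 13.5 ± 11.5 in DP, against means of 0.318 to 4.36 in the 4 keratinocyte populations. The difference was 2.60 ± 0.27 (limma, adjusted p = 1.5e-10), the 1 call among 9 members, a share near the background of 9.77% of genes higher. Under the minimum difference but past the adjusted p, Mrc1 (0.97, adjusted p = 1.39e-06, higher in 8 of 8 pairs), Csf1r (0.82, 0.0037) and Csf1 (0.56, 0.00786) were higher in mesenchyme. Il34 (-0.96, 2.6e-05, higher in 0 of 8 pairs), Cd68 (-0.93, 0.00907) and Laptm5 (-0.66, 0.00614) were lower there by the same measure. Lyz1 is a near-identical copy of Lyz2 between which counting could split reads, and it was at 42.1 ± 13.9 RPKM in Neg. In the mesenchyme, the DP libraries ran from 1.54 to 35.9 RPKM of Lyz2 and overlapped with DF (7.45 to 29.2).

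Cd68 was the least confined of the marker genes. Its means outside Neg (25.7 ± 9.89 RPKM) were 14.01 ± 23.0 in Foll, 13.6 ± 12.3 in Epi, 7.27 ± 3.19 in HGSC, 5.65 in BuSC, 4.799 in DP and 3.54 in DF. The Epi level came mostly from zone 1, at 28.2 and 36.4 RPKM, where the other 6 libraries ran from 2.70 to 13.97. Neg and Epi, the next by log2 mean, were not distinguished (1.18, adjusted p = 0.0548). The call changed with small changes of the fit: it passed with quantile scaling (0.0328), median-of-ratios scaling (0.0430), the replicate block (0.0481) and voom (0.0255), and without the 4 libraries that stood apart (1.29, 0.0306). It also passed in 12 of the 56 fits that left out 1 library, with adjusted p from 0.0262 to 0.157.

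All 9 members differed among the 7 populations by the F test, against a background of 81.8% of genes. Of the 54 neighbours in the ordered levels, 18 differed. The background of the pairs not given above was 11.1% of genes for BuSC and HGSC, 21.2% for BuSC and Foll, 22.2% for HGSC and Foll, 35.9% for DP and Neg, 37.5% for DP and BuSC, 41.3% for Foll and Neg, 42% for DP and Foll, and 43.7% for DP and HGSC. Csf1r ran Neg, DF, Foll and HGSC, each above the next (DF over Foll by 1.07, adjusted p = 0.0201; Foll over HGSC by 1.08, 0.0446), and the lower neighbours BuSC, Epi and DP were not distinguished. Without the 4 libraries closest to another population DF over Foll was not called (0.81, 0.119), and the Foll over HGSC call was lost in 13 of the fits that left out 1 library. Il34 ran Epi over Foll (not called with Epi and Foll fitted alone) and Foll over Neg by 1.5 (limma, adjusted p = 9.79e-05). The latter difference was 1.20 without the 4 libraries. Neg and DP followed, not distinguished, and then DP over DF. DP over DF was not called with quantile or median-of-ratios scaling or voom, nor without DF zone 3 replicate 1 or DP zone 3 replicate 2. Mrc1 had Neg over DF by 3.34 (5.36e-13) and DF over DP by 0.82 (0.00717), whereas none of the 6 neighbours of Cd68 was called on deposited values.

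No zone difference of these genes passed the test with all libraries. Within populations, 0 of 63 tests of a member across zones passed the adjustment, with 6 at an unadjusted p under 0.05 and a lowest adjusted p of 0.333 (limma F test). Fcer1g (adjusted p = 0.000391) and Cd68 (0.0237) passed in Foll without the 4 libraries that stood apart, with 1 library left in each of 3 zones. The background was 0.43% of genes in DP, 0.197% in DF, 0.359% in BuSC, 0.137% in HGSC, 1.03% in Foll, 1.79% in Epi and 1.01% in Neg. With 2 libraries per zone, the smaller differences were not detectable. In Neg the zone means of Lyz2 ran from 337 to 425 RPKM and of Csf1r from 17.7 to 23.6.

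The steepest slope by p was Il34 in HGSC. It was at 0.541 and 0.5 RPKM in zone 1, 0.402 and 1.5 in zone 2, 1.89 and 1.32 in zone 3, and 3.81 and 5.16 in zone 4. Zone 4 lay above the other zones without overlap, on 105 and 88 reads. The slope was 0.60 ± 0.19 on the log2 scale per zone step (limma, unadjusted p = 0.0034, adjusted p = 0.406, background 0.131% of genes). Fcer1g in HGSC was likewise highest in zone 4, at 7.80 and 5.80 RPKM against at most 0.509 in zones 1 to 3. Zone trends did not pass as different between populations for any of the 9 members, with a background of 0.699% and a lowest unadjusted p of 0.0662, for Il34.

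Some members moved together over the 28 groups of population and zone. As descriptions over group means of log2(RPKM + 1), which share libraries and their depth, Tyrobp and Laptm5 correlated at 0.95, Lyz2 and Mrc1 at 0.95, Tyrobp and Fcer1g at 0.91, and Fcer1g and Laptm5 at 0.90. Csf1r correlated with Mrc1 at 0.83, with Csf1 at 0.72 and with Il34 at -0.07. Cd68 correlated with the others at no more than 0.63.

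Among 12859 candidate genes, those most like Csf1r were Spata13 (0.93), Depp1 (0.91), Fgl2, Col28a1 and Apbb1ip (0.90 each). Fgl2, a fibrinogen-like protein, was at 57.8 RPKM in Neg and 26.85 in DF, and Apbb1ip, an adapter of integrin activation, at 18.9 and 17.3. Most like Csf1 were the matrix gene Tnxb (0.93), Gda (0.92), the matrix gene Thbs2 (0.91), Parp14 and the complement gene C3 (0.89 each). Tnxb was at 44.8 RPKM in DF, 33.6 in Neg and 25.6 in Epi. Most like Il34 were Cttnbp2 (0.96), Slc4a8 (0.95), Sema3f, Wnk2 (0.93 each) and Npl (0.92), all highest in Epi, with Sema3f, a guidance ligand, at 41.2 RPKM there and 16.7 in Foll. Of each set of 5, only 1, 3 and 3 were also among the top 5 when the 56 libraries were used in place of the 28 group means.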

How the data were processed

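RNA of sorted cells was amplified before sequencing, per the labels' protocols. The deposited values are RPKM computed by the authors. The submitters' processing notes name build mm10, STAR 2.4.0, featureCounts, limma, edgeR and DESeq2. Read strand is not given in the sources used here. Whole reads were recovered for 22217 of 22233 genes (99.9%, within 0.02 reads), which gave the depths.

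Tests used limma 3.58.1 (R 4.3.3, statmod 1.5.0) on log2(RPKM + 1) for the 16731 genes at 1 RPKM or more in at least 2 libraries, with 28 group means, 28 residual degrees of freedom, an abundance trend and Benjamini-Hochberg adjustment over all genes, two-sided. Differences on this scale understate changes of low genes. Pairs and F tests were called at an adjusted p under 0.05. Positions and promoters came from GENCODE M21 and RefSeq GRCm38.p6. Named list genes were the up to 4 with the largest difference in a comparison, and others were named after their values were seen. Like genes had a mean of at least 5 RPKM in a group. The members and lists were chosen with earlier results of these data known. Replicates are called biological in the labels, so p-values measure the spread between these samples. Tests were tried on simulated data. Pseudocount, filter, scaling, replicate block, left-out libraries and voom on recovered reads were alternatives.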

Additional observations from a re-analysis of the deposited data

Results flagged for a closer look

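In 11 of 63 groups of 8 libraries, the highest or lowest library stood apart from the rest by a gap larger than Dixon's 95% critical value. Chance flags about 1 in 20 groups of normally distributed values, a rate that was not established for RPKM values near 0; all but the Csf1 value in DF were on the high side. Several of these libraries recur. BuSC zone 2 replicate 2 was highest for Tyrobp in BuSC (3.61 RPKM, next 0.319), Laptm5 in BuSC (1.55, next 0.563) and Mrc1 in BuSC (2.32, next 0.434), while Csf1r in BuSC peaked in zone 1 replicate 2 (8.21, next 0.869). Epi zone 2 replicate 1 was highest for Tyrobp in Epi (16.3, next 3.06) and Csf1r in Epi (3.54, next 1.33).

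In Foll, Lyz2 stood out in zone 1 replicate 1 (11.8 RPKM, next 2.43) and Cd68 in zone 4 replicate 1 (70.3, next 11). In DF, Fcer1g was high in zone 2 replicate 1 (8.87, next 1.3) and Csf1 was low in zone 3 replicate 2 (15.4, next 22.6). Il34 in DP was high in zone 3 replicate 2 (8.52, next 5.16). The causes were not tested.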

How the results depend on the processing

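No member's difference changed direction in a call under any setting. Between DP and DF the 2 calls became 4 with quantile scaling, 4 with median-of-ratios scaling and 5 with voom on recovered reads; Lyz2 (-1.37, -1.54 and -1.80) and Mrc1 (-1.40, -1.49 and -2.23) were then lower in DP. Between BuSC and HGSC the 1 call became 2 with a pseudocount of 0.1, the replicate block, the replicate block by zone, voom, and without the 4 libraries closest to another population (chosen after seeing the data), each time by adding Tyrobp. Between Epi and Foll 6 became 2 with only the populations compared; Fcer1g was also lost with no filter (adjusted p = 0.0579) and quantile scaling (0.0621), and Mrc1 with quantile and median-of-ratios scaling. Between mesenchyme and keratinocytes 1 became 4 with the pseudocount of 0.1, 3 with quantile scaling, 4 with median-of-ratios scaling and 4 with voom. Zones within Foll went from 0 to 2 without those 4 libraries (Fcer1g, adjusted p = 0.000391, and Cd68, 0.0237). Leaving out 1 library gave 2 to 3 calls for DP and DF, 1 to 2 for BuSC and HGSC, 4 to 6 for Epi and Foll, 8 to 8 for Neg, 1 to 3 for mesenchyme, 0 to 1 for zones in Foll, and 14 to 19 neighbours. With Lyz1 and Lyz2 summed (chosen after seeing the data), Lyz2 was lower in Epi than in Foll (-1.30, adjusted p = 0.0318). The cause was not tested for these. The labels do not say that equal replicate numbers share animals. Over all genes, deviations of the 84 same-zone pairs correlated at -0.028 to 0.0852, so the replicate block was not read as pairing. Such a correlation does not describe single genes. In HGSC, Tyrobp was 7.34 to 9.54 RPKM in replicate 1 and 0 to 4.04 in replicate 2. Csf1 in HGSC went the other way, at 1.86 to 3.02 and 5.30 to 7.15. The replicate block changed no comparison call but that of Tyrobp (limma, adjusted p = 0.0251). In the population pairs Cd68 in Neg over Epi passed with it (0.0481), while Csf1r in Foll over HGSC was lost with the block by zone (0.0540). Depth limits genes near 0, where a few reads set a level.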

Other observations

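Class II antigen presentation genes were listed in the keratinocyte populations too. H2-Ab1 averaged 381 RPKM in Neg, 73.8 in Foll, 41.5 in HGSC, 17.0 in Epi and 1.92 in BuSC. Cd74, the invariant chain, averaged 715 in Neg and 93.0 in Foll. Receptors for granulocyte-macrophage factor were high in Neg, with Csf2ra at 14.5 and Csf2rb at 27.6 RPKM, although the mean of their ligand Csf2 was at most 0.411 RPKM in any population.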
